A study of Mus musculus with 8 samples.

Results

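The genes of glucose uptake, glycolysis and the hypoxia response were examined as a group of 38 genes in RNA seq of Th17 cells expressing WT-ROR-γt and of Th17 cells expressing the K187R-ROR-γt mutant. They were taken by gene symbol from a list of 38 symbols, and each had to have a mean of at least 10 normalized counts over the 8 samples. All 38 were present, among 22829 genes listed and 16982 genes that reached this mean. The symbol Aldoa stood for 2 listed genes, and the one with a mean of 4.84 normalized counts (ENSMUSG00000114515) was left out. The lowest mean among the 38 was that of Car9, at 35.6. The cells were CD4+ T cells from the spleens of ROR-γt−/− mice. A lentivirus supplied either form of ROR-γt, and culture conditions steered the cells towards Th17. The WT group comprised 4 samples with wild-type ROR-γt. The K187R group comprised 4 samples with the mutant in which the lysine that takes up SUMO is replaced by arginine, and the comparison asks which transcripts depend on this SUMOylation. By genotype, all 8 samples therefore lacked endogenous ROR-γt and carried a lentiviral copy, and the share of cells that took up the virus is not given in the sources used here. The design text deposited for the series refers to mice of both kinds, whereas the methods of the study describe transduced cells. Neither states whether the samples came from separate animals or cultures, so the p-values measure the spread between these samples, which may be technical.

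Glycolysis splits glucose into pyruvate in the cytosol and yields ATP without oxygen. Activated T cells, and Th17 cells in particular, take up more glucose and release much of the pyruvate as lactate. The transcription factor HIF-1α raises the transcription of most genes of this route when oxygen is low. It is itself controlled mainly by the stability of its protein, because prolyl hydroxylases mark it in the presence of oxygen for destruction through the von Hippel-Lindau protein. HIF-1α is also known to promote Th17 differentiation and to act together with ROR-γt.

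The deposited values are reads per gene divided by 1 size factor per sample, termed normalized counts here. Gene-assigned reads numbered 52456804 to 74676721 per WT sample and 54260345 to 67827288 per K187R sample. A count of 3 reads, taken as the limit of detection, corresponded to 2.54 to 3.56 normalized counts, and the smallest value of the 38 genes rested on 20 reads. Both cover counting error only. Clustering placed the samples in 3 sets over 16839 genes outside the gene lists used here. WT replicates 1 and 3 with K187R replicate 1 formed set 1, WT replicate 2 with K187R replicates 2 and 3 formed set 2, and the replicate 4 samples of both groups formed set 3. Each of the 6 CD4 T cell markers was detected in every sample, as were the Th17 markers examined. Transcripts of myeloid cells were also abundant, although the CD4+ cells had been isolated with magnetic beads before culture. All 6 markers were detected in every sample, and their sums were 20894, 49938, 21275 and 61673 in WT replicates 1 to 4 and 35580.2, 43815, 47482 and 64664 in K187R replicates 1 to 4. The sums, made up mostly of Lyz2, were lowest in WT replicates 1 and 3 and highest in both samples of set 3. Lyz2, Itgam and Cd68 were each highest in set 3. Csf1r and Cd14 were highest in set 2, and Adgre1 in K187R replicates 2 and 3. In bulk RNA, fewer cells of a type and less RNA per cell cannot be told apart.

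The genes spanned a wide range of levels, which are compared per kilobase of annotated exon. The highest were Ldha with 15636 normalized counts per kilobase, Aldoa with 14322, Pkm with 12465 and Pgk1 with 11322, and all 4 encode glycolytic enzymes or lactate dehydrogenase. Hif1a followed with 6310.5. This order depends on the length used. Per kilobase of the longest transcript, Ldha stayed the highest, Eno1 at 15088 stood above Pgk1 at 13921, and Hif1a ranked 8 of the 38. At the other end were P4ha2 with 14.9, Car9 with 15.5, Aldoc with 106 and Pfkfb4 with 130.5 normalized counts per kilobase. Of the 38 genes, 13 were within the top 10% of tested genes per kilobase, 3 within the top 1% and 5 in the lower 50%, where the median of the tested genes was 253. Each step from hexokinase to lactate dehydrogenase had at least 1 gene above this median, and the 5 genes below it were P4ha2, Car9, Aldoc, Pfkfb4 and Ankrd37. Gapdh, at 1848 normalized counts per kilobase, is uncertain, because its annotated exons sum to 4133 bases and processed copies of it exist. Copies named after Aldoa, Gapdh, Pgk1, Pgam1, Eno1, Ldha and Bnip3l were listed as genes of their own. Their levels per kilobase were at most 3.87% of the parent gene, except Bnip3l-ps at 18.4% of Bnip3l. How reads that match several genes were counted is not stated in the sources used here. Exons of a gene on the other strand covered 26.4% of the exon bases of Ankrd37, 22.2% of those of Bnip3 and 11.5% of those of Gpi1. Whether counting used strand is not stated, so these 3 genes may hold reads of their neighbours. On the same strand another gene covered 15.3% of Pkm and 10.2% of Pfkm.

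**Figure D1:**
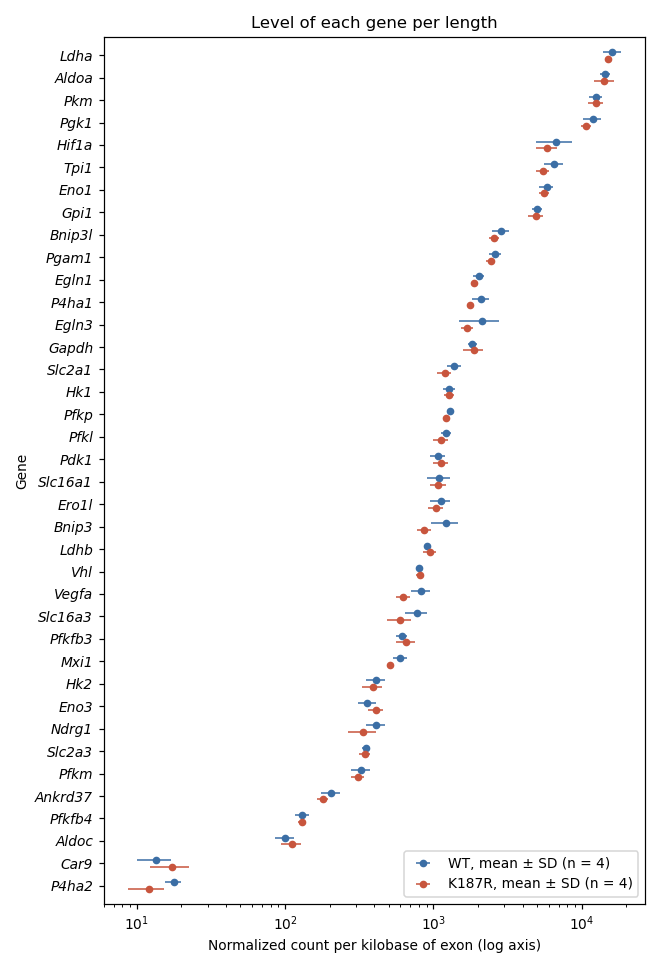
Mean level of each of the 38 genes in normalized counts per kilobase of exon (log axis), with blue points for WT and red points for K187R and bars for the SD (n = 4 each). Levels run from 14.9 for P4ha2 to 15636 for Ldha, and the spread between genes is far wider than the distance between the groups.

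In the comparison of K187R with WT, none of the 38 genes passed the limma threshold of 0.05 on the adjusted p-value, and 0 of the 16982 tested genes (0%) did so. With the group as the only term, neither edgeR nor DESeq2 on the recovered reads called any of the 38, although DESeq2 called 27 genes in all and edgeR 0. At an unadjusted p-value under 0.05, limma gave 746 genes, 467 higher in K187R and 279 lower. These are 2.75% and 1.64% of the genes tested. Of the 38 genes, 6 (15.8%) were lower at this level and 0 higher. The 6 were Vegfa, Bnip3, Slc16a3, Mxi1, P4ha2 and P4ha1. This number depended on single samples. It was 2 without WT replicate 3 and 2 without K187R replicate 2, where the genes tested gave 372 and 439. It was 3 without K187R replicate 1, where they gave 836, and 12, of which 11 were lower, without WT replicate 4, where they gave 2181. The samples of the groups did not overlap for 1 of the 38 (2.63%), P4ha2, for which every K187R sample was below every WT sample, as held for 0.989% of the genes tested. The opposite order, with K187R wholly above WT, held for 0 of the 38 and for 1.47% of the genes tested. The fitted log2 fold change, K187R minus WT on the log2(normalized count + 1) scale, was below 0 for 30 of the 38 (78.9%) and for 51.6% of the genes tested. Over the alternative settings the number below 0 lay between 24, without WT replicate 3, and 32. The median log2 fold change was -0.084 over the 38 genes and -0.0062 over the genes tested. The median ratio of the highest to the lowest of the 8 samples was 1.38 for the 38 genes and 1.55 for the genes tested. For 15 of the 38, the 95% interval of the fold change lay within 0.8 and 1.25. The share of all genes tested with such an interval was not computed, so this count does not set the 38 apart.

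**Figure D2:**
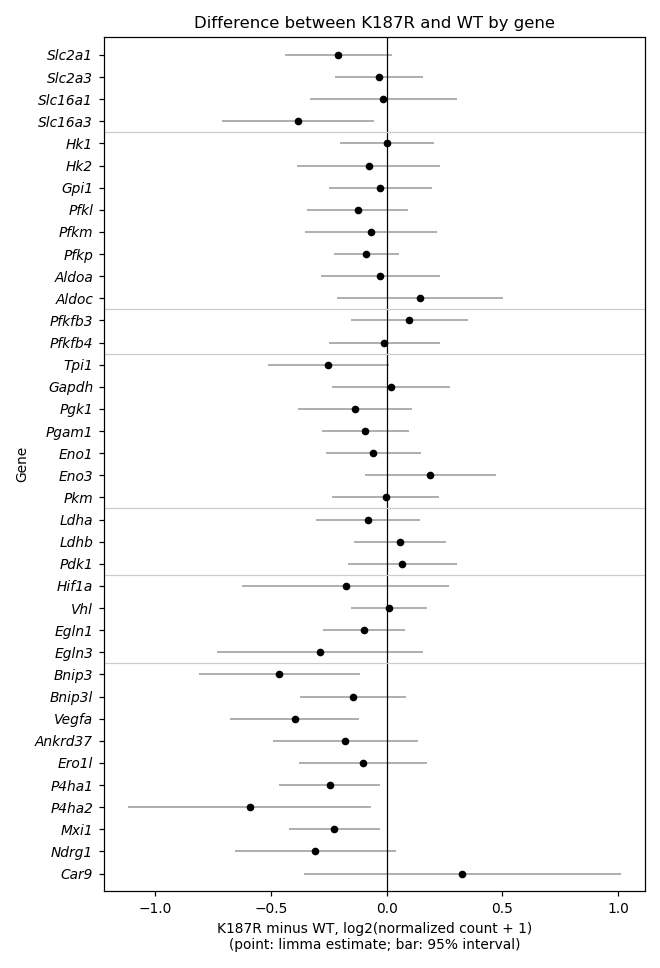
Log2 fold change of K187R against WT for the 38 genes in the order of their roles, with limma estimates as points and 95% intervals as bars. The points of 30 genes lie below 0, and the intervals of 6 genes, 5 of them in the last group of hypoxia-induced genes, lie wholly below 0.

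**Figure D3:**
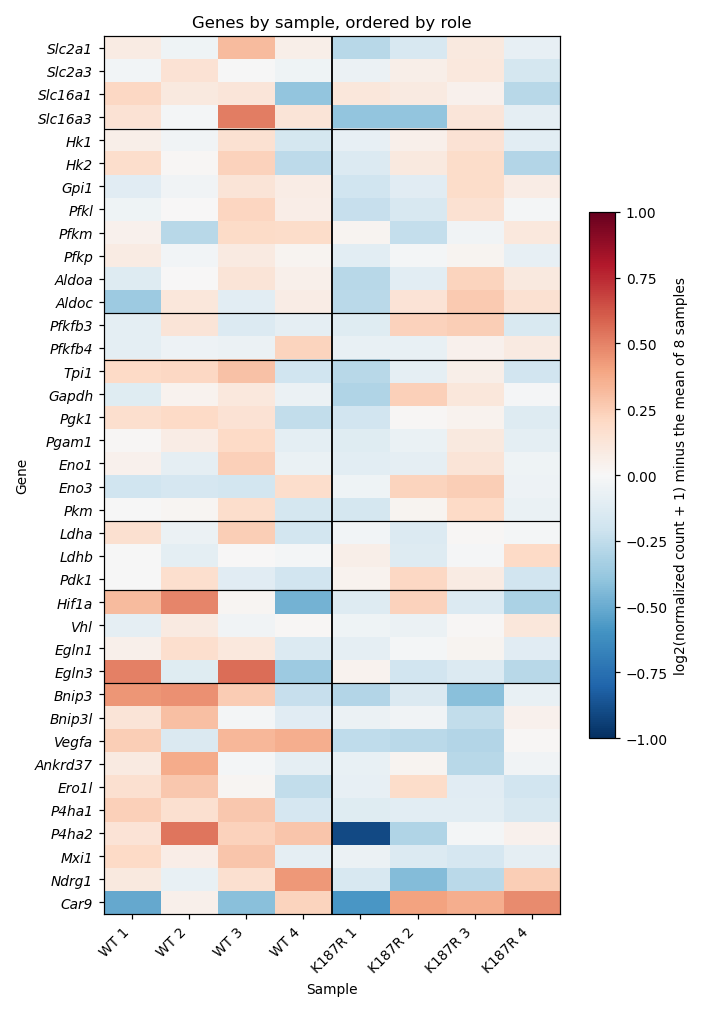
Log2(normalized count + 1) of each gene in each sample minus its mean over the 8 samples, with genes in the order of their roles and the groups divided by the vertical line. WT replicate 3 held the highest value of 14 genes and K187R replicate 1 the lowest of 12, while WT replicate 4 held the lowest of 10.

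Glucose enters T cells through the facilitative carriers GLUT1, encoded by Slc2a1, and GLUT3, encoded by Slc2a3. Coordinates here are those of GRCm38 in GENCODE M21. Slc2a1 (ENSMUSG00000028645, chromosome 4, 119108711 to 119137983, plus strand) measured 4736, 4346, 5574 and 4653 normalized counts in WT replicates 1 to 4 and 3691, 4009.8, 4782 and 4217 in K187R replicates 1 to 4. Slc2a3 measured 2470.4, 2783, 2519 and 2443 in WT and 2424, 2629, 2706 and 2231 in K187R. For both carriers the samples of the groups overlapped. The 3 lowest values of Slc2a1 came from K187R, and K187R replicate 3 was above 3 of the WT samples. The group means of Slc2a1 were 4828 ± 525 in WT and 4175 ± 459 in K187R (mean ± SD of 4 samples each), a log2 fold change of -0.21 (SE 0.10, limma adjusted p = 0.921). For Slc2a3 the log2 fold change was -0.034 (95% interval -0.22 to 0.16). Slc2a1 made up 79.5% ± 2.36 in WT and 77.5% ± 1.88 in K187R of the pair per kilobase, so it was the more abundant transcript of the pair in either group.

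Lactate crosses the membrane through monocarboxylate transporters, MCT1 encoded by Slc16a1 and MCT4 encoded by Slc16a3, of which MCT4 serves chiefly to export lactate and is induced by HIF-1α. Slc16a3 (ENSMUSG00000025161, chromosome 11, 120948480 to 120960868, plus strand) measured 3956, 3527, 5109.8 and 3927 normalized counts in WT replicates 1 to 4 and 2719, 2722, 3891 and 3364 in K187R replicates 1 to 4. K187R replicates 1, 2 and 4 were below every WT sample and WT replicate 3 was above all others, but K187R replicate 3 fell inside the WT range, so the groups overlapped. The means were 4130.1 ± 682 in WT and 3174 ± 566 in K187R (mean ± SD of 4 samples each), a log2 fold change of -0.38 (SE 0.15, limma adjusted p = 0.921), with an unadjusted p of 0.0275. Slc16a1 measured 5515, 5124, 5190.1 and 3638 in WT and 5167, 5094, 4923 and 3948 in K187R, and its log2 fold change was -0.015 (95% interval -0.33 to 0.30). The 2 lowest samples for Slc16a1 were the replicate 4 samples of both groups. Per kilobase, Slc16a1 made up 58.5% ± 5.45 in WT and 64.4% ± 5.80 in K187R of the pair, and the ranges of the groups overlapped. All 4 transporters had fold changes below 0, with a median log2 of -0.12. The sign for Slc2a3 and for Slc16a1 depended on the settings.

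Hexokinases trap glucose in the cell as glucose 6-phosphate, Hk1 being the widespread form and Hk2 the inducible one. Hk1 measured 11350.2, 10642, 12068 and 9605 normalized counts in WT replicates 1 to 4 and 10262, 11275, 11991 and 10089 in K187R replicates 1 to 4. Hk2 measured 2688, 2388, 2787 and 1977 in WT and 2161, 2535, 2691 and 1936 in K187R. Both genes were lowest in the replicate 4 samples, WT for Hk1 and K187R for Hk2, and the groups overlapped over nearly their whole range. Hk1 had a log2 fold change of -9.4e-05 (95% interval -0.20 to 0.20) and Hk2 of -0.077 (95% interval -0.39 to 0.23). Hk1 made up 75.7% ± 1.11 in WT and 76.7% ± 1.31 in K187R of the pair per kilobase. The isomerase Gpi1, which turns glucose 6-phosphate into fructose 6-phosphate, had 32268 ± 2404 in WT and 31779.6 ± 3819.6 in K187R (mean ± SD of 4 samples each), a log2 fold change of -0.027.

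Phosphofructokinase, the committed step, is built from the liver, muscle and platelet subunits encoded by Pfkl, Pfkm and Pfkp. Pfkl measured 7593, 7825, 9067 and 8196 normalized counts in WT replicates 1 to 4 and 6666, 7000.1, 8695 and 7699 in K187R replicates 1 to 4. Pfkm measured 1088, 872, 1211 and 1203 in WT and 1079, 899, 1032 and 1139.8 in K187R. Pfkp measured 17812, 16506, 17958 and 17171 in WT and 15683, 16590.3, 17184 and 15916 in K187R. The platelet and liver subunits were present at similar levels per kilobase and the muscle subunit at a lower one. In WT, Pfkp made up 45.6% ± 1.69 (SD, n = 4), Pfkl 43.0% ± 1.64 and Pfkm 11.5% ± 1.18. With the length of the longest transcript in place of all exons, Pfkl exceeded Pfkp. In K187R the shares were 46.0% ± 2.06, 42.3% ± 2.19 and 11.7% ± 1.30. The subunit mix thus differed between the groups by less than 1 SD. Pfkp was the steadiest of the 38 genes, with a ratio of 1.15 between its highest and lowest sample. The log2 fold changes were -0.12 for Pfkl, -0.069 for Pfkm and -0.087 for Pfkp, and each 95% interval included 0. Aldolase then cleaves fructose 1,6-bisphosphate, and Aldoa made up 99.3% ± 0.0859 in WT and 99.2% ± 0.0568 in K187R of the pair per kilobase. Aldoa measured 37981, 41469, 45315 and 42982 in WT and 34180.5, 38644, 48512 and 44459 in K187R, a log2 fold change of -0.027. Aldoc, the brain form, measured 265, 369, 317 and 359.9 in WT and 284, 375, 411 and 379.6 in K187R. Its lowest value was in WT replicate 1 and its highest in K187R replicate 3, and K187R replicate 1 was below 3 of the WT samples. The log2 fold change of 0.14 (SE 0.16, limma adjusted p = 0.925) had one of the 3 smallest p-values among the genes that were higher in K187R.

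Pfkfb3 and Pfkfb4 encode enzymes that make and degrade fructose 2,6-bisphosphate, the activator of phosphofructokinase. Pfkfb3 measured 4448, 5224, 4339 and 4473 normalized counts in WT replicates 1 to 4 and 4375, 5591, 5643 and 4297 in K187R replicates 1 to 4. Pfkfb4 measured 593, 613, 608 and 742 in WT and 601, 601, 654 and 677 in K187R. Pfkfb3 was highest in K187R replicates 2 and 3 and in WT replicate 2, which are the samples of set 2. Pfkfb4 was highest in both samples of set 3. Their log2 fold changes were 0.099 (95% interval -0.16 to 0.35) and -0.0093 (95% interval -0.25 to 0.23). Pfkfb3 made up 82.3% ± 2.10 in WT and 83.3% ± 2.40 in K187R of the pair per kilobase.

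The lower part of glycolysis, from triose phosphates to pyruvate, yields the ATP. Of its 7 genes, 5 had fold changes below 0, and the median log2 was -0.057. Tpi1, the triose phosphate isomerase, had 17965 ± 2530.5 in WT and 15022 ± 1518 in K187R (mean ± SD of 4 samples each), a log2 fold change of -0.25 (SE 0.12, limma adjusted p = 0.921). This was the largest negative difference among the glycolytic enzymes. WT replicate 4, with 14255 normalized counts, lay below 3 of the K187R samples, and the other WT samples lay above all of K187R. Pgk1, the phosphoglycerate kinase, had 26663 ± 3606 in WT and 24148 ± 1863 in K187R (mean ± SD of 4 samples each) and Pgam1, the phosphoglycerate mutase, 5176 ± 447 in WT and 4852 ± 349 in K187R (mean ± SD of 4 samples each). Their log2 fold changes were -0.14 and -0.092. Gapdh, often used as a reference gene, had a log2 fold change of 0.018 (95% interval -0.24 to 0.27) and Pkm, the pyruvate kinase, of -0.0044 (95% interval -0.24 to 0.23). Both signs changed with the settings.

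Enolase is encoded by the widespread Eno1 and the muscle form Eno3. Eno1 measured 31397, 28564, 35886 and 29046 normalized counts in WT replicates 1 to 4 and 28282, 28679, 33284 and 29531 in K187R replicates 1 to 4. Eno3 measured 576, 589, 584 and 751 in WT and 645, 775, 786 and 639 in K187R. In Eno3, WT replicate 4 stood above the other WT samples and between the lower and the higher pair of K187R samples, and WT replicates 1 to 3 lay below every K187R sample. Eno3 had 625 ± 84.1 in WT and 711 ± 80.1 in K187R (mean ± SD of 4 samples each), a log2 fold change of 0.19 (SE 0.13, limma adjusted p = 0.921), with an unadjusted p of 0.168, the smallest among the genes that were higher in K187R. Eno1 had a log2 fold change of -0.057 and made up 94.1% ± 1.12 in WT and 93.2% ± 0.62 in K187R of the pair per kilobase.

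At the end of the route, lactate dehydrogenase turns pyruvate into lactate and back, with Ldha encoding the subunit that favours lactate and Ldhb the heart subunit. Ldha (ENSMUSG00000063229, chromosome 7, 46841475 to 46855627, plus strand) measured 57622, 49509.8, 60972 and 45402 normalized counts in WT replicates 1 to 4 and 50662, 46983, 52096 and 50804 in K187R replicates 1 to 4. Ldhb measured 1451, 1355, 1459 and 1434 in WT and 1509, 1325, 1441 and 1671 in K187R. For Ldha, WT replicates 1 and 3 were the highest samples, and WT replicate 4 was the lowest of all 8. The K187R samples lay close to each other, between the extremes of WT. The log2 fold change was -0.082 for Ldha (95% interval -0.31 to 0.14) and 0.057 for Ldhb (95% interval -0.14 to 0.26). Ldha made up 94.6% ± 0.633 in WT and 94.1% ± 0.438 in K187R of the pair per kilobase. Pdk1, the kinase that blocks entry of pyruvate into the mitochondrion by inhibiting pyruvate dehydrogenase, had 8354 ± 922 in WT and 8761 ± 987 in K187R (mean ± SD of 4 samples each), a log2 fold change of 0.068.

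Of the 4 genes of oxygen sensing, none had an unadjusted p under 0.05 in limma. Hif1a varied within both groups, more so in WT. Egln3 varied widely within WT (SD 1738) but not within K187R (SD 418). Hif1a (ENSMUSG00000021109, chromosome 12, 73901375 to 73947530, plus strand) measured 45256, 51069, 36896 and 26228 normalized counts in WT replicates 1 to 4 and 33286, 42596, 33139 and 29184 in K187R replicates 1 to 4. It was highest in WT replicates 2 and 1 and lowest in the replicate 4 samples of both groups. The WT group alone spanned the whole range, with a highest to lowest ratio of 1.95 over all samples, and all K187R samples lay inside it. The means were 39862 ± 10792 in WT and 34551 ± 5689.9 in K187R (mean ± SD of 4 samples each), a log2 fold change of -0.18 (SE 0.20, limma adjusted p = 0.925). Vhl, which recognises hydroxylated HIF-α, was steady, with a ratio of 1.15 between highest and lowest sample and a log2 fold change of 0.011 (95% interval -0.16 to 0.18). The prolyl hydroxylases PHD2 and PHD3 are encoded by Egln1 and Egln3, and Egln3 is itself strongly induced by HIF. Egln1 measured 7276, 7857, 7549.6 and 6385 in WT and 6583, 6925, 7153 and 6472 in K187R. Egln3 measured 7037, 4548, 7296 and 3855 in WT and 5070.0, 4337, 4519 and 4084 in K187R. Egln3 stood out in WT replicates 1 and 3, both of set 1, which lay above all other samples. K187R replicate 1, of the same set, was the highest of its group but far below them. Log2 fold changes were -0.096 for Egln1 (95% interval -0.27 to 0.082) and -0.29 for Egln3 (95% interval -0.73 to 0.16). The share of Egln1 per kilobase ranged from 43.4% to 56.1%.

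HIF binds DNA at the hypoxia response element, whose core is ACGTG or GCGTG. The RefSeq promoter windows of GRCm38.p6, of 300 bases and mostly upstream of a transcription start, were searched for both cores on both strands. Windows existed for 35 of the 38 genes, not for Slc2a3, Bnip3l and Ndrg1, and these genes had 51 windows. A core was found in 41 windows (80.4%), in 60% of 13768 windows of tested genes and in 43.8% of all 32851 windows. At least 3 matches were found in 29.4%, 15.2% and 8.93% of these windows. The E-box CACGTG, which MYC binds and which holds ACGTG on both strands and so counts as 2 matches, was found in 11.8%, 9.54% and 7.15%. Windows and not genes were counted, and some windows of Pfkm, Aldoa and Eno1 overlap, so a core can count more than once. Base composition was not compared between these groups of windows. A match is a description of the sequence and not of binding. The first window of Ldha, the most abundant gene, held 7 matches, the most of the 51. Bnip3 held 5, P4ha2 4 and Slc16a3 2, and these 3 are shown as examples of genes with low values in K187R relative to WT. Vegfa, with a log2 fold change of -0.398 against -0.383 for Slc16a3, is not shown. It held 0 in its first window and 2 in its second. The windows shown were picked and all hold cores, so they do not represent the 51. Capitals mark the cores on either strand, including E-boxes.
Ldha promoter, chr7:46845554-46845853, plus strand: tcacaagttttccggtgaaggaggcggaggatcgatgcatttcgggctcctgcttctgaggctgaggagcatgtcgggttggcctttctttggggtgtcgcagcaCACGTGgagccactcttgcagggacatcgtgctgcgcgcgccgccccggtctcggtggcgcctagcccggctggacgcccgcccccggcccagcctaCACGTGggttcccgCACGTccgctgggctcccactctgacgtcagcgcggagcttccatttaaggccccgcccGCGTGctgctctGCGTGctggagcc
Bnip3 promoter, chr7:138909457-138909756, minus strand: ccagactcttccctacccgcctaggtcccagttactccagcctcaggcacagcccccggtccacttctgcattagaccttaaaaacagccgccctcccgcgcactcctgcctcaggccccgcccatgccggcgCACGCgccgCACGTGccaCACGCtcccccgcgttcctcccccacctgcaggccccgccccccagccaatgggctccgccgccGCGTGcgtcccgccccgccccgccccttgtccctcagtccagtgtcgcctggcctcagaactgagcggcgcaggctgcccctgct
P4ha2 promoter, chr11:54100674-54100973, plus strand: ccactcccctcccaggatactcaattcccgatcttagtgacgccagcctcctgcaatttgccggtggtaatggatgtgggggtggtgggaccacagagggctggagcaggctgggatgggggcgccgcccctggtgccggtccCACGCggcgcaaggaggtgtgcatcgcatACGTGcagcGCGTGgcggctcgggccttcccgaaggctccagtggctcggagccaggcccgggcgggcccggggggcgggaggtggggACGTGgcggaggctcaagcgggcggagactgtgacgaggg
Slc16a3 promoter, chr11:120948817-120949116, plus strand: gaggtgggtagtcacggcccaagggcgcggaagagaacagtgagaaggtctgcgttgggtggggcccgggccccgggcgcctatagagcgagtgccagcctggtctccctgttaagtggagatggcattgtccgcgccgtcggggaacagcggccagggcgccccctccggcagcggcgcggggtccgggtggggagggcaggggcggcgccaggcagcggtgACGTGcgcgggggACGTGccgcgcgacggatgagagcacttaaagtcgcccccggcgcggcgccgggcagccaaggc

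The 10 other hypoxia-induced genes held 5 of the 6 genes with an unadjusted p under 0.05. Of the 10, 9 had fold changes below 0, and the median log2 of the 10 was -0.24. These 9 remained below 0 in each of 19 alternative settings, which refit the same samples and are no independent support. The sign did not hold in each sample set. In set 3, which holds only the replicate 4 samples, Bnip3, Bnip3l, Ankrd37, Ero1l, P4ha1 and Mxi1 were above 0. Their log2 differences there were 0.16, 0.16, 0.051, 0.055, 0.0078 and 0.0041. Vegfa, P4ha2 and Ndrg1 were below 0 there. Vegfa (ENSMUSG00000023951, chromosome 17, 46016993 to 46032369, minus strand), which encodes the angiogenic factor VEGF-A, measured 3632, 2782, 3858 and 3955 normalized counts in WT replicates 1 to 4 and 2580.2, 2547, 2508 and 3100.2 in K187R replicates 1 to 4. WT replicates 1, 3 and 4 lay above all of K187R, while WT replicate 2 lay between K187R replicate 4 and the other K187R samples. The means were 3557 ± 534 in WT and 2684 ± 279 in K187R (mean ± SD of 4 samples each). This gave a log2 fold change of -0.40 (SE 0.12, limma adjusted p = 0.921) and an unadjusted p of 0.00981, the smallest of the 38, and a fold of 0.759 (95% interval 0.626 to 0.92).

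Bnip3 (ENSMUSG00000078566, chromosome 7, 138890836 to 138909519, minus strand) and its relative Bnip3l encode receptors for the removal of mitochondria by autophagy. Bnip3 measured 3131, 3161, 2744 and 1962 normalized counts in WT replicates 1 to 4 and 1873, 2086, 1722 and 2185 in K187R replicates 1 to 4. Bnip3l measured 11385, 12799, 10278 and 9605 in WT and 10002, 10152, 8785 and 10722 in K187R. For Bnip3, WT replicates 1 to 3 lay above every K187R sample and WT replicate 4 lay among them. For Bnip3l the highest samples were WT replicates 2 and 1, and the groups overlapped. Bnip3 had 2749 ± 559 in WT and 1967 ± 209 in K187R (mean ± SD of 4 samples each), a log2 fold change of -0.46 (SE 0.15, limma adjusted p = 0.921) and an unadjusted p of 0.0142. Bnip3l had a log2 fold change of -0.15 (95% interval -0.38 to 0.082). Bnip3 made up 29.7% ± 2.73 in WT and 25.2% ± 0.797 in K187R of the pair per kilobase. WT replicates 1 to 3 had shares of 29.6% to 31.9%, above all of K187R, and WT replicate 4 was at 25.8%.

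P4ha1 and P4ha2 encode catalytic subunits of the prolyl 4-hydroxylase that modifies collagen. P4ha2 (ENSMUSG00000018906, chromosome 11, 54100095 to 54131665, plus strand) measured 98.6, 131, 106 and 109 normalized counts in WT replicates 1 to 4 and 47.4, 72.7, 88.5 and 92.5 in K187R replicates 1 to 4. P4ha1 measured 9286, 8786, 9476 and 6991 in WT and 7247, 7332, 7322 and 7029 in K187R. P4ha2 was the gene whose groups did not overlap. The distance between the lowest WT sample, replicate 1, and the highest K187R sample, replicate 4, was small beside the spread within K187R, where replicate 1 was by far the lowest. It also had the widest range of the 38 genes, with a highest to lowest ratio of 2.76. P4ha1 varied little within K187R. WT replicates 1 to 3 lay above all K187R samples and WT replicate 4 was the lowest of all 8. P4ha2 had 111 ± 13.8 in WT and 75.3 ± 20.4 in K187R (mean ± SD of 4 samples each), a log2 fold change of -0.59 (SE 0.23, limma adjusted p = 0.921), and P4ha1 8635 ± 1134 in WT and 7232 ± 141 in K187R (mean ± SD of 4 samples each), a log2 fold change of -0.25 (SE 0.097, limma adjusted p = 0.921). Their unadjusted p-values were 0.031 and 0.0313. P4ha1 made up 99.1% ± 0.164 in WT and 99.3% ± 0.19 in K187R of the pair per kilobase, so P4ha2 was a trace form.

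Mxi1, a MAX partner that represses MYC targets, had 4070.3 ± 446 in WT and 3465 ± 117 in K187R (mean ± SD of 4 samples each), a log2 fold change of -0.23 (SE 0.088, limma adjusted p = 0.921) and an unadjusted p of 0.0285. WT replicates 1 to 3 lay above all K187R samples, and WT replicate 4 did not. Ndrg1, a stress-response gene, had 2727 ± 405 in WT and 2219 ± 473 in K187R (mean ± SD of 4 samples each), a log2 fold change of -0.31 (95% interval -0.66 to 0.040). It was highest in the replicate 4 samples of both groups. Ero1l, which encodes an oxidase of the endoplasmic reticulum, and Ankrd37, an ankyrin repeat gene, had log2 fold changes of -0.10 (95% interval -0.38 to 0.17) and -0.18 (95% interval -0.49 to 0.13). Car9, the membrane carbonic anhydrase often used as a marker of hypoxia, was the gene of the 10 with a fold change above 0. It measured 23.8, 35.6, 25.4 and 40.1 normalized counts in WT replicates 1 to 4 and 22.6, 45.6, 44.2 and 48.0 in K187R replicates 1 to 4. The low samples were WT replicates 1 and 3 and K187R replicate 1, the 3 samples of set 1. The groups overlapped, and the log2 fold change of 0.33 (SE 0.30, limma adjusted p = 0.922) rests on few reads. By level per kilobase Car9 ranked 37 of the 38.

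**Figure D4:**
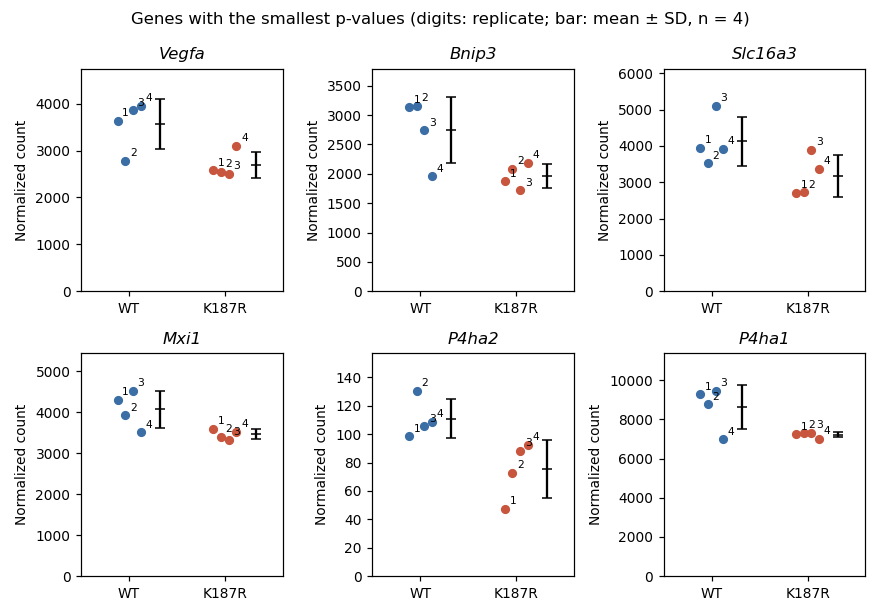
Normalized counts of the 6 genes with an unadjusted p under 0.05, with blue points for WT samples and red points for K187R samples, the digits giving the replicate and the bars the mean ± SD (n = 4). WT replicate 4 is within or below the K187R range for Bnip3, Mxi1 and P4ha1, WT replicate 2 is within it for Vegfa, and K187R replicate 3 is within the WT range for Slc16a3.

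The 6 genes were then compared within the 3 sample sets, which hold 1 or 2 samples of a group each. The log2 differences in sets 1, 2 and 3 were -0.54, -0.14 and -0.35 for Vegfa, -0.73, -0.12 and -0.22 for Slc16a3 and -1.09, -0.70 and -0.23 for P4ha2, all below 0. They were -0.65, -0.74 and 0.16 for Bnip3, -0.37, -0.26 and 0.0078 for P4ha1 and -0.30, -0.22 and 0.0041 for Mxi1, where set 3 showed no lower value. With the sample set as a factor in limma, their log2 fold changes had unadjusted p-values of 0.00268 for Vegfa, 0.00307 for P4ha2, 0.0122 for Bnip3, 0.0152 for P4ha1, 0.0323 for Mxi1 and 0.0373 for Slc16a3, and none had an adjusted p under 0.05. The genes had been picked by their p-values in these same samples, and the sets were defined from them too. These p-values are therefore no independent support. In the fit with the sample set, 8 of the 38 genes, all lower, and 1394 of the 16982 tested genes had an unadjusted p under 0.05. The K187R mean was below the WT mean in each of the 3 sets for 6 of the 38 genes (15.8%), namely Slc2a3, Slc16a3, Pfkl, Vegfa, P4ha2 and Ndrg1, and for 9.42% of the genes tested. As a mean over the 10 other hypoxia-induced genes, the log2 difference from the mean of the 8 samples was 0.12, 0.20, 0.11 and 0.035 in WT replicates 1 to 4 and -0.26, -0.081, -0.15 and 0.027 in K187R replicates 1 to 4. Each WT sample was above each K187R sample, but narrowly, since the replicate 4 samples of the groups were nearly level. This mean includes 5 of the 6 genes picked by their p-values, and the groups overlapped in the means of the other role groups. How often means over 10 other genes separate the groups was not examined. For the 8 genes from hexokinase to aldolase it was -0.035, -0.032, 0.13 and 0.0048 in WT replicates 1 to 4 and -0.16, -0.043, 0.14 and -0.0088 in K187R replicates 1 to 4, with K187R replicate 3 and WT replicate 3 highest. The myeloid marker sum was smallest in WT replicates 1 and 3, larger in K187R replicate 1 of the same set, and largest in set 3. Lyz2, the lysozyme of macrophages and neutrophils, made up most of it, at 17025, 42242, 17030.0 and 54522 in WT and 30153, 35455, 38318 and 57778 in K187R. The B cell markers summed to 301 to 1220.0 normalized counts in WT and 357 to 1596 in K187R and were smallest in set 3, the CD8 T cell markers to 403 to 1025 and 387 to 1141, the NK cell markers to at most 30.5 and the red blood cell markers to at most 76.5. The part of these cells in the differences was not tested.

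**Figure D5:**
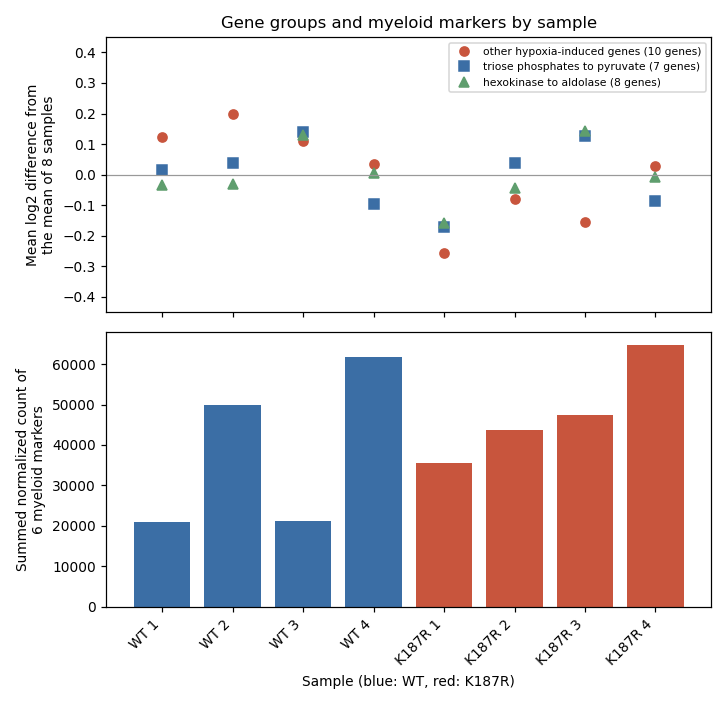
Above, the mean log2 difference from the mean of the 8 samples for 3 groups of genes in each sample. Below, the summed normalized counts of 6 myeloid markers in the same samples, with WT in blue and K187R in red. The hypoxia-induced genes are between 0.035 and 0.20 in WT and between -0.26 and 0.027 in K187R, and the glycolytic groups overlap between WT and K187R.

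Other genes of the same routes were examined by 7 lists with 93 symbols, of which 80 reached a mean of 10 normalized counts. None passed an adjusted p of 0.05 in limma, and 2 were lower and 2 higher at an unadjusted p under 0.05, beside 1.64% and 2.75% of the genes tested. Their median log2 fold change was -0.030, with 45 of the 80 below 0. A further 19 genes known to be induced by hypoxia had 12 below 0 and held both that were lower at an unadjusted p under 0.05. The median log2 fold change of these 19 was -0.037. It was -0.24 for the 10 hypoxia-induced genes among the 38 and -0.0062 for the genes tested. The smallest p belonged to Higd1a, a hypoxia-induced mitochondrial protein, with 1789 ± 263 in WT and 1414 ± 86.8 in K187R, a log2 fold change of -0.33 (limma adjusted p = 0.921). In the pentose phosphate pathway, which branches from glucose 6-phosphate and makes NADPH, 7 of 8 genes were above 0. H6pd, its enzyme in the endoplasmic reticulum, had 1943 ± 210.0 in WT and 2300.2 ± 169.6 in K187R, a log2 fold change of 0.25 (limma adjusted p = 0.921). Of 10 other glycolysis enzymes 5 were below 0, and Galm, the galactose mutarotase, had 1072 ± 109 in WT and 1280.0 ± 116 in K187R, a log2 fold change of 0.26 (limma adjusted p = 0.921). Of 10 other sugar and monocarboxylate carriers and their partners 5 were below 0, and Bsg, the chaperone of MCT1 and MCT4, had 10553 ± 385 in WT and 9529 ± 669 in K187R, a log2 fold change of -0.15 (limma adjusted p = 0.921). Of 11 other oxygen sensing genes 6 were below 0. Hif3a, a HIF-α relative, had 37.9 ± 3.81 in WT and 56.1 ± 18.5 in K187R, a log2 fold change of 0.50 (limma adjusted p = 0.921), with 79.1 normalized counts in K187R replicate 1 and at most 63.2 elsewhere. The pyruvate dehydrogenase complex with its kinases and phosphatases had 8 of 10 below 0. Its smallest p was that of Dld, the dihydrolipoamide dehydrogenase, with 7159.8 ± 1020.4 in WT and 6196 ± 403 in K187R, a log2 fold change of -0.20 (limma adjusted p = 0.921). The genes of MYC and mTORC1 signalling had 9 of 13 below 0. The smallest p there was that of Rheb, the activator of mTORC1, with 5389 ± 462 in WT and 4864 ± 421 in K187R, a log2 fold change of -0.15 (limma adjusted p = 0.921).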

How the data were processed

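RNA from WT-ROR-γt and K187R-ROR-γt Th17 cells was sequenced as poly-A libraries in paired 75-base reads. The deposited text names another library kit than the study's methods do. The authors trimmed reads with Cutadapt, aligned them with HISAT2 to GRCm38, counted them per GENCODE M15 gene with featureCounts and divided the counts by DESeq2 size factors. The deposited values are therefore a signal per gene, reads over 1 size factor per sample, which the authors made before deposit. All values (100%) were whole reads within a tolerance of 0.1 read once multiplied back. Groups follow the labels, 4 samples each. The main test was limma 3.58.1 (lmFit, eBayes with a trend, R 4.3.3) on log2(normalized count + 1) over 16982 genes averaging at least 10 normalized counts, with Benjamini-Hochberg adjustment and a threshold of 0.05. The scale understates changes of low genes. A count test was not chosen as the main test because the deposited values are not counts, although whole reads could be recovered from them. Alternatives were edgeR 4.0.16 (quasi-likelihood, TMM) and DESeq2 1.42.0 on the recovered reads, each sample left out, the replicate block, the sample set, median centring, quantile normalization, a minimum mean of 50 or none, and pseudocounts of 0.5 or 5. The sample sets were defined from the data by clustering the 8 samples. Tests on simulated data, which held no sample sets, covered limma, edgeR and DESeq2. A limit on the share of false calls was set there for limma and edgeR but not for DESeq2. Symbols matched the table directly. Exon lengths and coordinates are from GENCODE M21 of GRCm38, in place of M15, which holds 22784 of the listed identifiers and lacks 45. Promoter sequences are from RefSeq on GRCm38.p6. The 38 genes, the lists, the tests and the alternatives were chosen with earlier results of these data known. Every gene is named, with values in each sample for the 3 smallest p-values in each direction, isoenzyme sets, Hif1a, the 4 widest ranges and groups that did not overlap, and for other lists the smallest p. The level of 1 marker gene is not reported here.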

Additional observations from a re-analysis of the deposited data

Results flagged for a closer look

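Within a group of 4 samples, 1 sample stood apart from the other 3 in 6 of the 76 groups examined, by a gap that exceeded the critical share of the range (Dixon test), where 3.8 are expected by chance. Eno3, the muscle enolase, was at 751 normalized counts in WT replicate 4 and at 576 to 589 in the other WT samples. In the same sample Pfkfb4 was at 742, against 593 to 613 in the others. Pgk1 was at 21292 there, below the 27967 to 28994 of the others. Pfkfb3 was at 5224 in WT replicate 2 and at 4339 to 4473 in the other WT samples. Among the K187R samples, Vegfa was at 3100.2 in replicate 4 and at 2508 to 2580.2 in the others. Car9 was at 22.6 in K187R replicate 1 and at 44.2 to 48.0 in the others. Of the 6, 3 were WT replicate 4, and that sample and K187R replicate 4 had the highest myeloid marker sums. These sums were mostly Lyz2, and the markers Csf1r, Adgre1 and Cd14 were highest in K187R replicate 3. The part of the markers in these values was not tested.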

How the results depend on the processing

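Of 721 values recomputed for the genes, 676 kept their direction and their side of the threshold, 42 changed sign and 3 came to pass the threshold. Genes called over all tested numbered 1 with the sample set as a factor, 27 in DESeq2 (15 higher and 12 lower) and 0 to 4 when 1 sample was left out, 4 of them without WT replicate 4. None of the 38 genes was called in these fits. Of the 38 genes, those with an unadjusted p under 0.05 numbered 12 without WT replicate 4, 11 of them lower (2181 of all genes tested), 3 without K187R replicate 1 (836), 2 without WT replicate 3 (372) and 2 without K187R replicate 2 (439), against 6 (746) with all samples. The median log2 fold change of the 38 genes lay between -0.14 and -0.041 over the 8 fits that left out 1 sample. For these counts the cause was not tested. Changes of sign came from values near 0. Quantile normalization gave 0.0063 for Slc16a1, 0.016 for Hk1 and 0.018 for Pkm, median centring -0.0037 for Gapdh and -0.011 for Vhl, the sample set 0.0019 for Slc16a1, -0.044 for Gapdh and -0.0082 for Vhl, and edgeR 0.0039 for Hk1 and 0.0019 for Pkm. With 1 sample left out, the log2 fold change ranged from -0.074 to 0.019 for Slc2a3, -0.15 to 0.074 for Slc16a1, -0.060 to 0.050 for Hk1, -0.18 to 0.0078 for Hk2, -0.092 to 0.036 for Gpi1, -0.11 to 0.062 for Aldoa, -0.043 to 0.064 for Pfkfb4, -0.058 to 0.12 for Gapdh, -0.11 to 0.012 for Eno1, -0.072 to 0.052 for Pkm, -0.00089 to 0.11 for Ldhb and -0.025 to 0.043 for Vhl. With the longest transcript as the length, the median level of the 38 genes moved from 1095 to 1362 normalized counts per kilobase. Car9 had no value under a mean of at least 50 and no adjusted p in DESeq2. The replicate numbers, which both groups share, were not taken as a pairing, because no source ties samples of the same number together and their deviations from the means of their groups correlated at 0.59, 0.66, -0.092 and 0.63 for numbers 1 to 4. WT replicate 3 correlated best with K187R replicate 1, the other WT samples with their own number. With the replicate number as a block, limma called 0 genes, with 10 of the 38, all lower, and 2046 of all genes tested at an unadjusted p under 0.05, and DESeq2 with the same replicate block called 175 genes (118 higher and 57 lower, 1.29% of those with an adjusted p). These included 3 of the 38, Slc16a3 (log2 fold change -0.38, adjusted p = 0.00101), Vegfa (-0.40, adjusted p = 0.0112) and Ndrg1 (-0.31, adjusted p = 0.0196), and Hk1 was at 4.0e-05 there. Of the 38 genes, 6 were lower and 1 higher in 4 of 4 same-numbered pairs, against 8.33% and 11.0% of the genes tested. Depth limits Car9 most, with 20 reads in its lowest sample.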
